A study of Mus musculus with 4 samples.

Results

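The BPI-fold family is a group of lipid-binding proteins, many of them secreted. It is described here from 10 mouse genes: *Bpifa1*, *Bpifa2*, *Bpifb1*, *Bpifb2*, *Bpifb3*, *Bpifb4*, *Bpifb5*, *Bpifb6*, *Bpifb9a* and *Bpifb9b*. The 10 genes were chosen by their expression on these same arrays, with the difference between 16-month and 8-week mice already known, so that every difference between ages given for them is a description without a test. They were found through the accession that the array design gives each non-control probe. Of the 10 genes, 9 were measured, by 12 of 56605 probes and as 9 of 45604 genes tested, and no probe matched *Bpifb9a*.

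Gene expression was measured on 4 one-color Agilent arrays of nasal mucosa, which the labels call olfactory epithelium. The mice were male C57BL/6J animals, which the labels shorten to B6, and the protocols name no treatment or transgene for either group. The young adult group was 8 weeks old and the aged group was 16 months old, with 2 arrays in each. Each array was hybridized with Cy3-labelled RNA that had been pooled from 5 mice. The methods of the study assign too few animals of each age to gene analyses for both pools to be made of different mice, so the pools of an age may overlap and are not known to be independent, and P-values measure the spread between pools, which may be technical. In bulk mucosa, fewer cells of a type and less RNA per cell cannot be told apart.

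Between 63.1 and 76.8% of the non-control spots were well above background on an array, and no spot was saturated. The first array of each age shared a slide, and the second arrays came from separate slides. The median background was 67 (8 weeks) and 63 (16 months) on the shared slide, and 32 and 39 on the other slides. Over all genes, the arrays correlated at 0.9872 within the young adult group and 0.9873 within the aged group. Arrays of different age correlated at 0.9821 to 0.9891, so the arrays as a whole did not group by age. All 12 markers of mature olfactory receptor neurons and all 12 markers of respiratory ciliated cells were well above background on all 4 arrays. The labels give the mice as male, and the sex-linked probes went against that on all 4 arrays: *Xist*, the RNA of the inactive X chromosome, lay between 612 and 645, and of 11 probes for 8 Y-linked genes, 1 was well above background on 1 array and none on all arrays. Both ages shared this pattern. A label field that names silica and lung matched neither the titles nor the tissue and was not used.

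BPI-fold proteins are relatives of bactericidal/permeability-increasing protein and of lipopolysaccharide-binding protein, which bind the lipid part of bacterial cell walls in a hydrophobic pocket. Many BPI-fold proteins are released by glands and secretory cells of the nose, the upper airways and the salivary glands, where they act at the mucosal surface. Most of their genes lie side by side on mouse chromosome 2. *Bpifb3* and *Bpifb4* belong to the branch first described in the olfactory mucosa of rodents, and *Bpifb9a* and *Bpifb9b* are related to vomeromodulin, a glycoprotein that nasal glands secrete into mucus.

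In the RefSeq annotation (GRCm38.p6), 13 BPI-fold genes stood in one run with 2 other genes among them, in the order *Bpifb2*, *Bpifb6*, *Bpifb3*, *Bpifb4*, *Bpifa6*, *Bpifa2*, the pseudogene *Gm14497*, *Bpifa3*, *Bpifa1*, *Bpifa5*, *Bpifb1*, *Cdk5rap1*, *Bpifb5*, *Bpifb9a* and *Bpifb9b*. Promoter sequences, running from 250 bases before to 50 bases after the annotated start, were at hand for all 10 members, with 12 starts in all. Shown are the promoters of the member that differed most between the ages (*Bpifb9b*, chr2:154306994-154307293), of its near copy without a probe (*Bpifb9a*, chr2:154257629-154257928), of the gene beside them (*Bpifb5*, chr2:154223492-154223791) and of the only member that was lower in aged mice (*Bpifb6*, chr2:153900138-153900437). All 4 are on the plus strand of GRCm38.p6 and are printed 5′ to 3′, with capitals marking the motif TATAAA, the motif CAGCTG, and the motif AGAACA or, for its opposite strand, TGTTCT.
Bpifb9b: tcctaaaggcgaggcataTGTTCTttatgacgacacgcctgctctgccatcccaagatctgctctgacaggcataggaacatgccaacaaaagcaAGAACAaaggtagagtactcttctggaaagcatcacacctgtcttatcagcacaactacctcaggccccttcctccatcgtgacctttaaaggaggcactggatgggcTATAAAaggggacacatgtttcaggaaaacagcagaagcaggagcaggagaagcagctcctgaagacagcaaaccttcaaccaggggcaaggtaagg
Bpifb9a: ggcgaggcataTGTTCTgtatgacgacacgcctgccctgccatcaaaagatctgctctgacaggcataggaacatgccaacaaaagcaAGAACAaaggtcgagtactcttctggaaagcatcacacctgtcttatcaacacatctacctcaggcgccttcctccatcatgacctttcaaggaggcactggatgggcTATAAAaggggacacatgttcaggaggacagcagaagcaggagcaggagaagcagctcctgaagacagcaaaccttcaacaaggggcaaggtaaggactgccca
Bpifb5: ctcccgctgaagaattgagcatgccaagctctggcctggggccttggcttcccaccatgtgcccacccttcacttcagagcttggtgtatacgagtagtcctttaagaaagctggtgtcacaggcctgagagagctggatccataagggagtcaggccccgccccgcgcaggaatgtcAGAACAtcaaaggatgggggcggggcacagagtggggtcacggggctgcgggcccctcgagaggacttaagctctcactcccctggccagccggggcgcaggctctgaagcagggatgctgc
Bpifb6: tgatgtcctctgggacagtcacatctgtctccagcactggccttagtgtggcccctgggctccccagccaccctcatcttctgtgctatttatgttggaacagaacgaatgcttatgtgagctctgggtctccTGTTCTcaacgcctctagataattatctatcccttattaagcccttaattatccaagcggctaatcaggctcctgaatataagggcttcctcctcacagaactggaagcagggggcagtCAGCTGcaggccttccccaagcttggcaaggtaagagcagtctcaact

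The promoters of *Bpifb9b* and *Bpifb9a* held identical bases in 279 of 308 aligned columns (90.6%), and no other pair of member promoters passed 49.7%. Both carried TATAAA, the core of a TATA box, 47 bases before the start in *Bpifb9b* and 54 bases before it in *Bpifb9a*. Each also held AGAACA, an arm of the element that androgen and glucocorticoid receptors bind, once on each strand. The 6 motifs of this paragraph were searched for on both strands, and no match in a member promoter overlapped another. AGAACA was present in 7 of the 12 member promoters (those of *Bpifa1*, *Bpifa2*, *Bpifb5*, *Bpifb6*, *Bpifb9a*, *Bpifb9b* and 1 of the 2 starts of *Bpifb1*), and in 19% of 32851 promoters of the same length. TATAAA was present in 3 member promoters against 13.6% of all promoters, CAGCTG, a core to which basic helix-loop-helix factors bind, in 2 against 16.3%, and CCAAT in 2 against 37.4%. TGACTCA, the AP-1 motif, was present in 1 against 5.2%, and TGTTTAC, a forkhead motif, in 0 against 3.65%. A match is a run of letters and not a measured site.

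The intensities below are normalized spot intensities, on a linear scale without units that can be compared between arrays for one gene but not between genes, and differences are aged minus young adult on the log2 scale. A sum of intensities over a list is therefore carried by its brightest probes and describes the other genes of the list only loosely. The family was mostly higher in aged mice, with the intensity of each 16-month array above that of each 8-week array for 8 of the 9 measured members and below it for *Bpifb6*. Across all genes tested, 24.2% had both aged arrays above and 21.8% had both below, and because the members were chosen by this contrast nothing is read from their counts. The differences ranged from a log2 of -0.30 for *Bpifb6* to 2.17 for *Bpifb9b*, with a median of 0.36 over the 9 members and 0.01 over all genes.

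For genes tested across the arrays, the limits for a call were, in limma's test over all genes, a P below 0.05 together with a false discovery rate (FDR, by Benjamini-Hochberg) below 0.25. By these limits 3 of the 9 members, *Bpifb2*, *Bpifb5* and *Bpifb9b*, were called higher, where 1.65% of all genes were called higher, and 0 were called lower, where 2.33% of all genes were. At an unadjusted P below 0.05 in limma, 6 members were higher and 1 (*Bpifb6*) was lower. Of all 45604 genes, 5990 had such a P in either direction. The counts of members use the contrast that the members were chosen by, so nothing is read from them. *Bpifb2* was not called with scaling to the 75th percentile or with the processed signal under either normalization, whereas *Bpifb5* and *Bpifb9b* were. The study also asked for a mean intensity of at least 100 and a fold change of at least 1.5, limits that are not applied here and that leave 2 of the members, without *Bpifb2*. The counts also rest on all 4 arrays: with any of the 4 left out, or with the replicate number as a block, limma called 0 members and 0 of all genes, though 3 to 5 members and 3294 to 5291 genes had an unadjusted P below 0.05 in those fits.

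**Figure D1:**
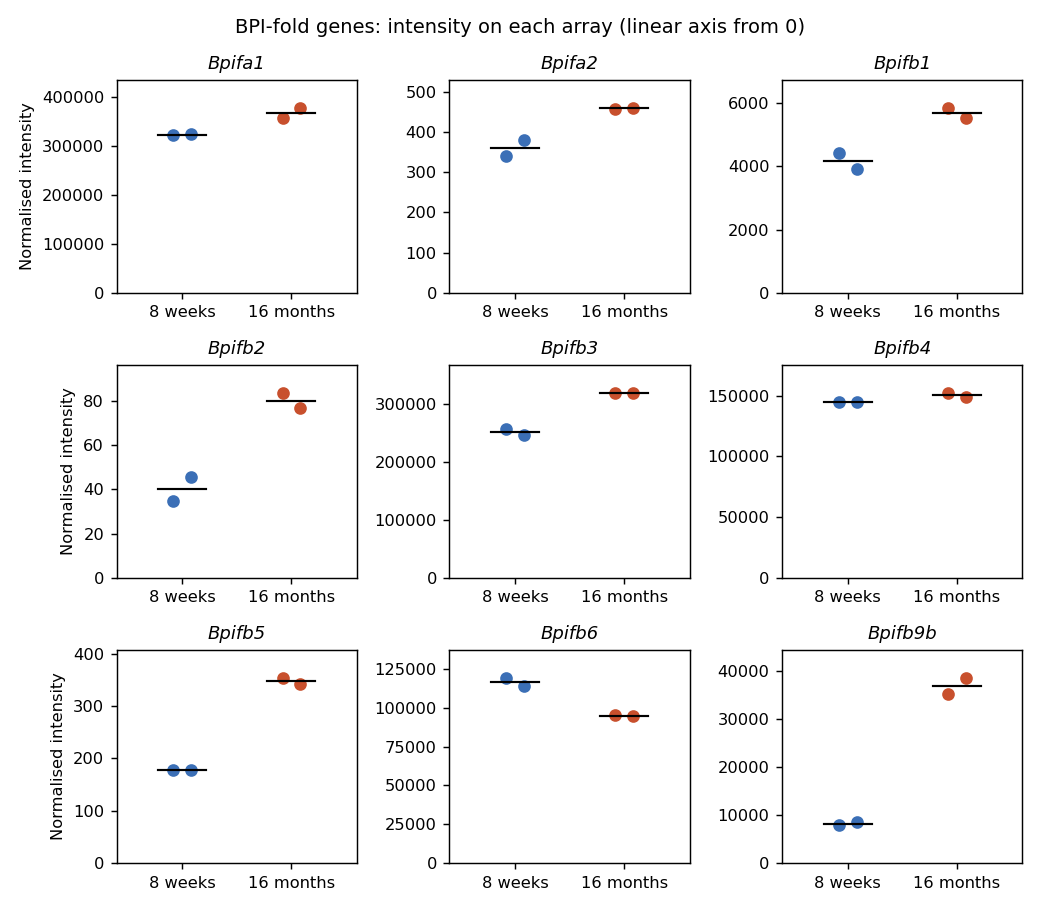
Normalized intensity (vertical, linear axis from 0, scaled to each gene) of the 9 measured genes on the 2 arrays of 8-week mice (blue points) and the 2 arrays of 16-month mice (orange points), with black lines at the means. *Bpifb9b* shows the highest ratio, from a mean of 8178 to 36829, and *Bpifb6* alone is lower at 16 months.

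*Bpifb9b*, the relative of vomeromodulin, had intensities of 7791 and 8564 at 8 weeks and of 35135 and 38524 at 16 months. The aged arrays were thus both far above the young adult arrays, and the arrays of one age lay close together. The mean was 8178 ± 546 (SD, n = 2 pools) at 8 weeks and 36829 ± 2396 at 16 months, a log2 difference of 2.17 (standard error 0.10), or 4.50-fold. The same difference, 2.17, was found between the 2 arrays that shared a slide and between the 2 arrays on other slides, and it stayed between 2.10 and 2.25 under every processing alternative run. The probe is assigned to *Bpifb9b* by its accession. Its sequence was not among the files used here, and the RefSeq table lists a common synonym for *Bpifb9a* and *Bpifb9b*, so that whether transcripts of *Bpifb9a* also bind this probe was not tested.

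Some markers of the vomeronasal organ and of the pituitary were also called higher at 16 months. Of 13 measured vomeronasal markers, 2 were called higher, *H2-M10.3* with a log2 difference of 1.73 (FDR = 0.168 by limma) and *H2-M10.6* with 1.26 (FDR = 0.208), and the intensities of the list summed to 1042 and 1092 at 8 weeks and to 2736 and 3009 at 16 months, most of it from *H2-M10.3*. The other 11 were not called, and 7 of the 13 were not above background on any array. Of 9 pituitary markers, *Prl* was called higher by a log2 of 4.96 (FDR = 0.102 by limma). *Gh*, which encodes growth hormone, was called higher by a log2 of 3.15 (FDR = 0.102 by limma). *Gh* was not well above background at 8 weeks, and the size of its difference moved in both directions with the treatment of the background. The pituitary list summed to 1222 and 1319 at 8 weeks and to 9876 and 9372 at 16 months, most of it from *Prl*. *Cga*, the common subunit of glycoprotein hormones, was at 37.1 and 22.5 at 8 weeks and 107 and 78.7 at 16 months, well above background on 1 array, and did not pass the limits (1.67, FDR = 0.260 by limma). *Pomc* was at 346 and 322 against 383 and 412 (0.25, FDR = 0.412 by limma). *Tshb*, at 20.6 and 15.5 against 84.0 and 20.4, was not flagged as well above background on any array, nor were *Fshb* and *Pou1f1*. The part of these tissues in the *Bpifb9b* difference was not tested.

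*Bpifb5*, which neighbours *Bpifb9a* on the chromosome, was also higher in aged mice. Its intensity was 177 on each array at 8 weeks and 354 and 342 at 16 months. The young adult values coincide because quantile normalization gave the probe nearly the same rank on both arrays, and before normalization its median spot signal was 209 and 189.5 at 8 weeks and 361 and 341 at 16 months. The log2 difference was 0.97 (standard error 0.08), a 1.96-fold change, with 1.0 on the shared slide and 0.95 on the other slides. Under the alternatives it ranged from 0.81 to 1.1.

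*Bpifb2*, the gene at the opposite end of the run, had intensities of 34.7 and 45.5 at 8 weeks and of 83.7 and 76.5 at 16 months. The arrays of the 2 ages did not overlap, but the gene was well above background on only 1 array of each age. Its mean was 40.1 ± 7.61 (SD, n = 2 pools) at 8 weeks and 80.1 ± 5.03 at 16 months. The log2 difference was 1.01 (standard error 0.17), with 1.27 on the shared slide and 0.75 on the other slides. The size of this difference moved with the treatment of the background, from 0.53 with 50 added after the background correction (a normexp offset of 50) to 1.97 with the processed signal of the scanner software under quantile normalization.

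*Bpifb1*, a secretory protein of the upper airways also called LPLUNC1, had intensities of 4413 and 3907 at 8 weeks and of 5869 and 5548 at 16 months. Both aged arrays lay above both young adult arrays, with means of 4160 ± 358 and 5709 ± 227 (SD, n = 2 pools). The log2 difference was 0.46 (standard error 0.10), with 0.41 on the shared slide and 0.51 on the other slides.

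*Bpifa2*, the parotid secretory protein, binds lipopolysaccharide and is best known from saliva. The average of its 2 probes was 340 and 380 at 8 weeks and 459 and 462 at 16 months. The log2 difference was 0.36 (standard error 0.10), with 0.43 on the shared slide and 0.28 on the other slides. Each probe separated the ages by itself, with differences of 0.32 and 0.39. Some salivary gland markers were lower at 16 months: of 10 measured, 0 were called higher and 3 were called lower by limma, *Smr3a* with a log2 difference of -1.28 (FDR = 0.216), *Prb1* with -1.15 (FDR = 0.178) and *Dcpp1* with -1.13 (FDR = 0.178). That list summed to 24190 and 24721 at 8 weeks and to 19067 and 19804 at 16 months, a sum in which *Prb1* went from a mean of 10314 to 4653 while *Klk1*, its brightest gene, was at 12679 and 13708. Of its 10 genes, 3 were not above background on any array, and its part in the level of *Bpifa2* was not tested.

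*Bpifa1*, also called SPLUNC1, is an abundant protein of airway surface liquid with surfactant and antimicrobial activity. Its intensities were 320694 and 323662 at 8 weeks and 356539 and 377561 at 16 months. Both aged arrays again lay above both young adult arrays, by a log2 of 0.19 (standard error 0.08) or 13.9%, with 0.15 on the shared slide and 0.22 on the other slides.

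*Bpifb3*, of the branch first described in olfactory mucosa, had intensities of 255678 and 246238 at 8 weeks and of 319087 and 317849 at 16 months. The 2 aged arrays nearly coincided and lay above both young adult arrays, and the log2 difference was 0.34 (standard error 0.08), with 0.32 on the shared slide and 0.37 on the other slides. No spot of any member was saturated or carried an outlier flag, and the brightest spot signal of the family before normalization was 362054.

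*Bpifb4*, of the same branch, differed least. The average of its 2 probes was 145293 and 145250 at 8 weeks and 152618 and 148801 at 16 months, a log2 difference of 0.05 (standard error 0.07). Its ages did not hold apart in single probes. The first probe gave 332593 and 320692 at 8 weeks against 323661 and 341679 at 16 months, and the second gave 63471 and 65788 against 71965 and 64803, so that on both probes the ages overlapped. Before normalization the difference was -0.05 on each probe, whereas every probe of the other members kept its direction.

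*Bpifb6*, which lies next to *Bpifb2* and *Bpifb3*, was the only member that was lower in aged mice. The average of its 2 probes was 119302 and 113902 at 8 weeks and 95357 and 94416 at 16 months, with the ages clearly apart. The log2 difference was -0.30 (standard error 0.08), a change of -18.6%, and it was -0.32 on the shared slide and -0.27 on the other slides. Both probes were lower in aged mice, by a log2 difference of -0.24 and -0.35, and the alternatives gave values from -0.33 to -0.24.

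**Figure D2:**
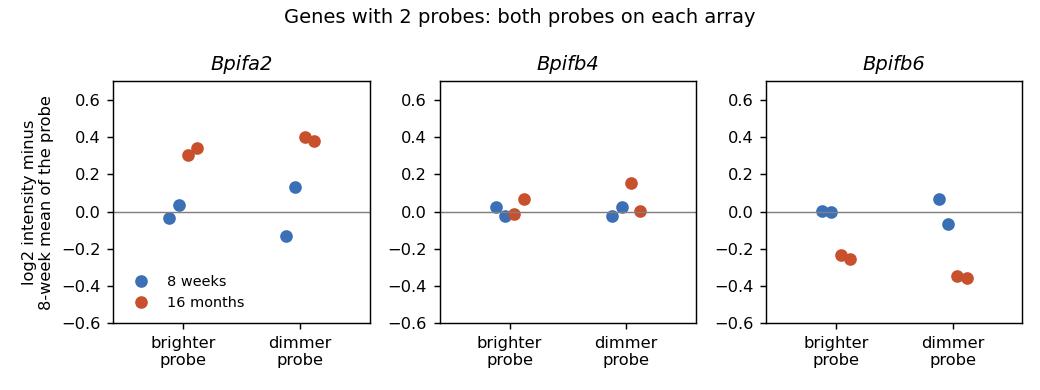
Log2 intensity minus the 8-week mean of the probe (vertical) for the 3 genes with 2 probes, on the arrays of 8-week mice (blue) and of 16-month mice (orange). The points separate by age on both probes of *Bpifa2* (0.32 and 0.39) and of *Bpifb6* (-0.24 and -0.35) and mix on both probes of *Bpifb4*.

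Along the chromosome, members with unlike differences stood side by side. *Bpifb2* (1.01) was followed by *Bpifb6* (-0.30), *Bpifb3* (0.34) and *Bpifb4* (0.05), and at the far end of the run *Bpifb1* (0.46), *Bpifb5* (0.97) and *Bpifb9b* (2.17) followed each other with only *Cdk5rap1* (0.16) and the unmeasured *Bpifb9a* among them. The pair of arrays on one slide and the pair on other slides gave the same direction for all 9 measured members. This was bound to follow, since the ages overlapped for none of them, and nothing is read from it.

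**Figure D3:**
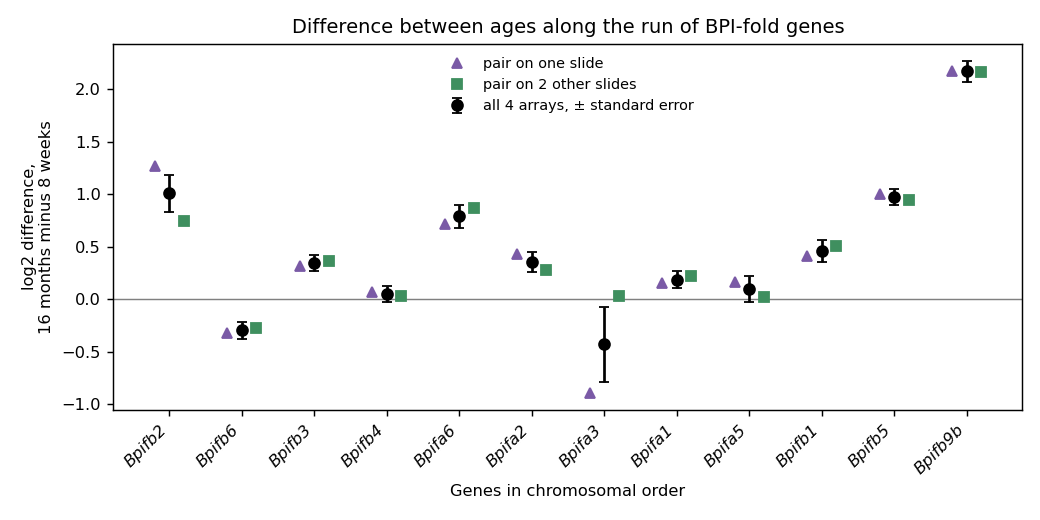
Log2 difference between 16-month and 8-week mice (vertical) for the 12 measured BPI-fold genes in the order of the chromosome, as the value of all 4 arrays with its standard error (black), the pair of arrays on one slide (triangles) and the pair on other slides (squares). *Bpifb9b* stands highest at 2.17, *Bpifb6* is at -0.30 next to *Bpifb2* at 1.01, and *Bpifa3*, at -0.43, was dim and overlapped between ages.

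**Figure D4:**
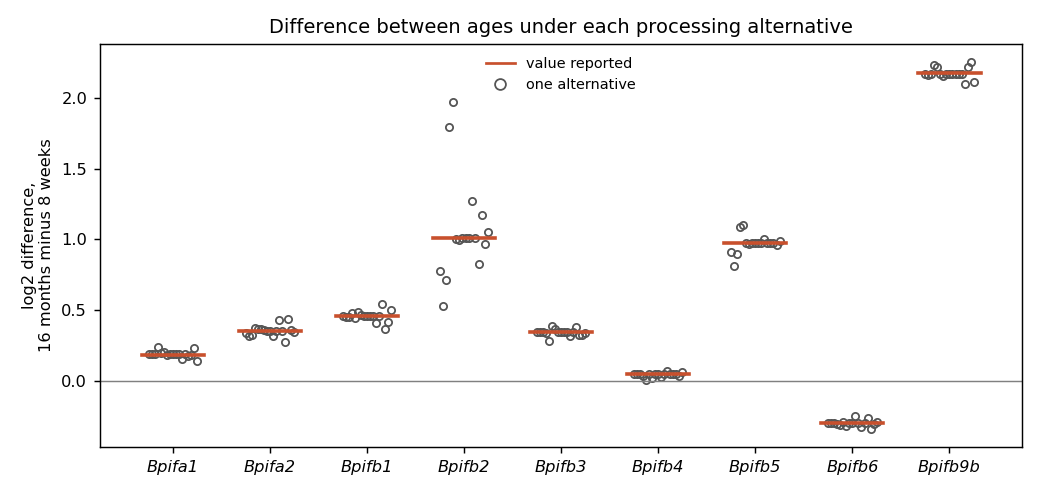
Log2 difference between 16-month and 8-week mice (vertical) for the 9 measured members, as reported (orange lines) and under each processing alternative (open points). Every point lies on the same side of 0 as the reported value, and *Bpifb2* spreads most, from 0.53 to 1.97. Some alternatives, such as the intensity trend and the replicate block, leave the difference unchanged by design.

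The other genes of the BPI and lipopolysaccharide-binding protein superfamily, which were not among the 10 chosen, gave 1 call. Of the 7 measured, 1 was called higher and 0 lower, with a median log2 difference of 0.00 against 0.01 over all genes and a range from -0.02 to 0.21 as young adult array 1 or 2 was left out. At an unadjusted P below 0.05, limma also had 1 of the 7 higher and 0 lower, where 5990 of all 45604 genes had such a P. The called gene was *Bpifa6*, which lies between *Bpifb4* and *Bpifa2*: its intensity was 225 and 232 at 8 weeks and 368 and 422 at 16 months, a log2 difference of 0.79 (standard error 0.11, FDR = 0.206 by limma). With 1 array left out its difference ranged from 0.68 to 0.90 and it was no longer called. *Bpifa5*, also within the run, was at 150 and 176 against 168 and 179 (0.10, FDR = 0.777 by limma), with overlapping ages. *Bpifa3* was well above background on 1 array only, and *Bpi*, the founding member, on none. *Bpifc*, which is not part of the run, was at 4868 and 5612 against 5503 and 5809 (0.11, FDR = 0.713 by limma), with overlapping ages. Outside the run, *Lbp*, the plasma protein that hands lipopolysaccharide to CD14, was at 2668 and 2776 against 2687 and 2771 (0.00, FDR = 0.987 by limma), and *Pltp*, the phospholipid transfer protein, was at 2110 and 2186 against 2010 and 1865 (-0.15, FDR = 0.564).

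Among 22 genes of lipopolysaccharide recognition and its signalling, 0 were called higher and 1 was called lower, with a median log2 difference of -0.01. At an unadjusted P below 0.05, limma had 1 of the 22 higher, *Nfkbia*, and 3 lower, where 5990 of all 45604 genes had such a P. The called gene was *Ly86*, which encodes MD-1, the partner of the receptor RP105, at 1778 and 1650 at 8 weeks and 1103 and 1073 at 16 months (-0.66, FDR = 0.202 by limma). The receptor *Tlr4* (0.03, FDR = 0.945) and its co-receptors *Cd14* (0.07, FDR = 0.772) and *Ly96* (-0.09, FDR = 0.693) did not pass the limits.

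Other products of nasal glands and mucosa were called in both directions. Of 33 measured genes of such secretions, 3 were called higher and 12 lower, with a median log2 difference of -0.16, which ranged from -0.31 with dim probes left out to -0.135 over the alternatives. This list shares genes with those of salivary gland, Bowman gland and respiratory secretory cell markers, among them *Dcpp1*, *Muc5b*, *Scgb3a1* and *Muc5ac*. The counts of these lists are therefore not separate observations. The 3 higher were *Scgb3a1*, a secretoglobin of airway secretory cells, from 630 to 1286 (1.02, FDR = 0.206 by limma), *Azgp1*, a secreted zinc-binding glycoprotein, from 5724 to 8652 (0.59, FDR = 0.213), and *Muc5b*, a gel-forming mucin of glands, from 46200 to 62488 (0.44, FDR = 0.245). The furthest lower were *Pip*, the prolactin-inducible secreted protein, from 19294 to 3650 (-2.40, FDR = 0.168), *Muc5ac*, the gel-forming mucin of goblet cells, from 2475 to 575 (-2.10, FDR = 0.178), and *Csn3*, a casein, from 342 to 98.4 (-1.80, FDR = 0.168).

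**Figure D5:**
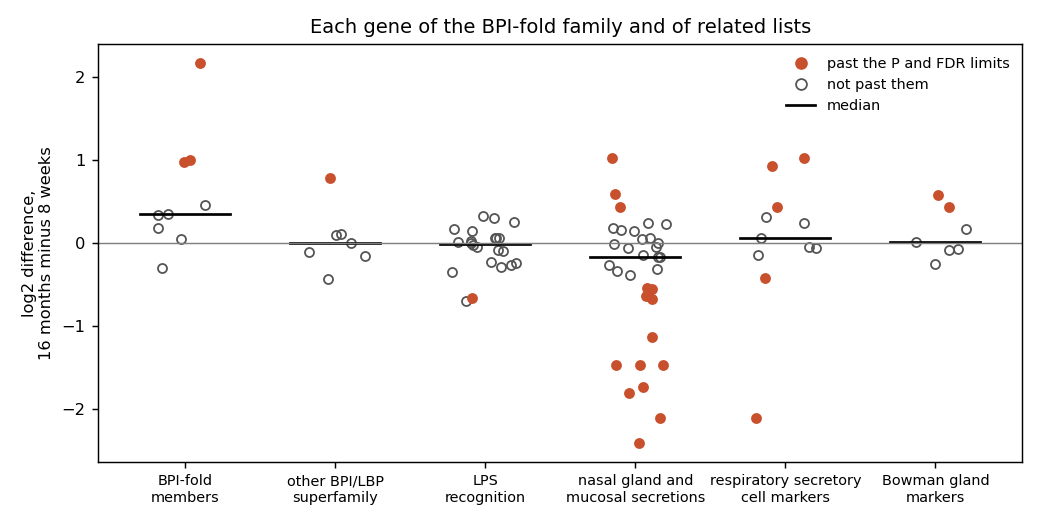
Log2 difference between 16-month and 8-week mice (vertical) of each gene of the family and of 5 related lists, with filled points for genes past the P and FDR limits, open points for the rest and black lines at the medians. The family's median is 0.36, that of the other superfamily genes 0.00 and that of nasal secretions -0.16.

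Lists of markers of the cells of the mucosa had median log2 differences between -0.10 and 0.20. The medians of the Bowman gland, sustentacular and respiratory secretory lists changed sign under some alternatives, the last ranging from -0.06 without young adult array 1 to 0.34 within one slide. Of 7 markers of Bowman glands, the mucus glands beneath the olfactory epithelium, 2 were called higher, *Ascl3* (0.59, FDR = 0.201 by limma) and *Muc5b*, with a median of 0.02, and the list summed to 415689 and 424641 at 8 weeks and 422064 and 442861 at 16 months. Of 11 markers of respiratory secretory cells, 3 were called higher, *Scgb3a1*, *Muc5b* and *Fcgbp*, which encodes an IgG Fc-binding mucus protein (0.93, FDR = 0.178 by limma), and 2 lower, *Muc5ac* and *Tff2*, a trefoil peptide (-0.42, FDR = 0.242), with a median of 0.07 and sums of 487200 and 484785 against 504962 and 506643. Of 9 markers of sustentacular cells, the supporting cells of the olfactory epithelium, *Cyp1a2* was called higher (0.54, FDR = 0.209 by limma), with a median of 0.03. Of the 12 markers of ciliated cells 0 were called in either direction, with a median of -0.10, and at an unadjusted P below 0.05 limma had 1 of them lower and 0 higher. The 2 brightest, *Sec14l3* and *Dynlrb2*, had differences of 0.05 and -0.24. Of the 12 markers of mature olfactory neurons, *Stoml3* was called higher (0.43, FDR = 0.244 by limma), and the 12 summed to 588524 and 579703 at 8 weeks and 643184 and 650830 at 16 months. All 12 had a log2 difference above 0, with a median of 0.20. At an unadjusted P below 0.05, limma had 4 of them higher and 0 lower. Of all 45604 genes, 5990 had such a P in either direction. The part of any of these cell types in the family's differences was not tested.

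The genes whose pattern over the 4 arrays was most like that of *Bpifb9b* were sought among 15460 named genes with a mean intensity of at least 100, by the Euclidean distance between log2 values centred on each gene's mean. They were *Serpina3j* (distance 0.12), *Krtap11-1* (0.20), *Olfr533* (0.32), *Serpina3n* (0.38) and *Synpr* (0.38). *Serpina3j*, a serine protease inhibitor, was at 121 and 133 at 8 weeks and 604 and 609 at 16 months. The 5 genes most like *Bpifb6* were *Slc12a4* (distance 0.01), *Smox* (0.02), *Cotl1* (0.02), *Tnfaip8l2* (0.02) and *Omd* (0.02). *Slc12a4*, a potassium-chloride cotransporter, was at 3508 and 3317 at 8 weeks and 2771 and 2750 at 16 months. With 4 arrays, likeness of this kind mostly restates the difference between the ages, and no test is attached to it.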

How the data were processed

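RNA of nasal mucosa from 2 pools of young adult and 2 pools of aged mice was measured on one-color arrays. The authors isolated and Cy3-labelled the RNA and read the spots with Agilent Feature Extraction (11.0.1.1); the submitters' processing notes also name R 3.2.1. The deposited values are spot intensity (median pixel brightness, local background and a processed signal) without normalization between arrays, and the deposited value table equalled the processed signal for all 62976 spots of each array, within rounding. The median spot signal was used.

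In limma 3.58.1 (R 4.3.3), background was corrected by normexp (offset 0), control and outlier-flagged spots were left out, spots of a probe were averaged, log2 values were quantile normalized, and probes of a gene were averaged. Accessions matched a RefSeq gene table (GRCm38.p6) for 32994 of 56605 probes (58.3%), and the remaining probes kept the design's identifier. Differences were fitted with limma (lmFit, eBayes) without covariates over all 45604 genes and called at P below 0.05 and FDR below 0.25, the significance limits of the study. Its further limits, a mean intensity of at least 100 and a fold change of at least 1.5, were not applied; *Muc5b*, *Cyp1a2*, *Tff2*, *Stoml3* and *Smr3a* would miss them. The script was tested on simulated data. The number of arrays limits the precision, and 0.333 is the smallest P that exact two-sided permutation allows for 1 gene here.

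The members, gene lists and tests were chosen with earlier results of these data known. All members were named, and for the members with the highest and the lowest difference, the 5 most similar named genes with a mean intensity of at least 100. From each list, up to 3 called genes in each direction were named or, with none called, the 2 brightest; genes described beside these for their role were chosen after their values were seen. Alternatives covered the background, scaling, dim and flagged probes, probe averaging, the intensity trend, slide, replicate block and each array left out. Promoters came from a RefSeq table of GRCm38.p6.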

Additional observations from a re-analysis of the deposited data

How the results depend on the processing

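All 9 measured members kept the direction of their difference in each of the 17 alternatives run (16 for *Bpifb2*, which was left out with the dim probes), but the calls did not hold. Several alternatives could hardly change a direction. The intensity trend and the replicate block leave the fitted difference as it is, and no member spot carried a flag. Directions within one slide or without an array largely follow from the ages not overlapping. They were free to change mainly with the background and the scaling. With any array left out, each lone array being assumed to vary like the other age's arrays, limma called 0 members and 0 of all genes in either direction, and the members' median log2 difference ranged from 0.35 to 0.385. With the replicate block, the counts were 0 members higher and 0 genes higher and 0 lower. The labels give the replicate numbers no common source, but the first arrays of both ages shared a slide, so the block is partly one of slide. The deviations of same-numbered arrays correlated at -0.078. Against 3 members higher and 0 lower of 754 and 1063 genes, the counts with a normexp offset of 16 were 5 members higher of 1298 and 1691 genes, with an offset of 50 they were 6 higher and 1 lower of 2107 and 2475, with no background correction 6 and 1 of 1788 and 2239, with the processed signal under quantile normalization 5 and 1 of 2029 and 2343, with dim probes left out 6 and 1 of 3445 and 3706, and with an intensity trend 7 and 1 of 3612 and 3518. They fell to 2 and 0 members of 584 and 826 genes with scaling to the 75th percentile and of 645 and 861 with the processed signal so scaled. The member lower was *Bpifb6* each time. With dim probes left out, 29495 genes were tested, without *Bpifb2*, against 45604 in the reported fit. The counts of that alternative are therefore out of fewer genes and members. The median log2 difference of the members, 0.36, was 0.392 with scaling to the 75th percentile and 0.411 within one slide. The cause of these shifts was not tested. The slide as a random block could not be fitted, since a correlation within slides could be estimated for 0 genes. Signal over background limits *Bpifb2*, and probe sequence limits the assignment of *Bpifb9b*.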
